A study of Homo sapiens with 6 samples.

Results

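The genes described here are 7 interferon regulatory factors (IRFs): IRF1, IRF2, IRF3, IRF4, IRF5, IRF7 and IRF8. They were chosen by symbol, with no threshold on their values, and are 7 of the 57820 genes in the count table, with 1 row for each symbol. RNA-seq was performed on M14 cells, a human melanoma cell line, in which a doxycycline-inducible shRNA against STAG2 had been stably introduced. STAG2 is a subunit of cohesin, the ring complex that forms DNA loops. The 3 WT libraries came from these cells kept without doxycycline and the 3 KD libraries from the same cells kept with doxycycline to silence STAG2, both for 5 days. Both groups carry the shRNA construct and differ in doxycycline, so silencing and the drug itself cannot be told apart, and all libraries rest on 1 cell line and 1 shRNA.

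IRFs are transcription factors that share a DNA-binding domain recognizing repeats of GAAA. IRF3 is present in most cells and is switched on by phosphorylation after foreign nucleic acid is sensed, whereas the IRF7 gene is itself induced by interferon through a complex that contains IRF9 and STAT2, before its protein is activated in the same way. IRF1 is induced by interferon gamma through a GAS element and activates antigen presentation genes, and IRF2 binds the same elements and can oppose it. IRF4, IRF5 and IRF8 are best known from leukocytes, and IRF4 is also expressed in melanocytes, where it cooperates with MITF on the pigment gene TYR. Phosphorylation and nuclear entry are not seen in mRNA, so the values below concern transcript levels alone.

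The region before the start sites was searched for the elements through which interferon and IRFs act. RefSeq promoter entries (build GRCh38.p14) existed for 4 of the 7 members, IRF1, IRF4, IRF5 and IRF8, with 8 start sites in all, and for IRF2, IRF3 and IRF7 none was matched. The 250 bases before each start were searched on both strands for GAAANNGAA (an ISRE-type core), TTCNNNGAA (a GAS) and AANNGAAA (an IRF core, whose first 7 letters also occur in the ISRE-type core). Of all 35116 promoters of the table, 6.88% held the first, 6.57% the second and 20.3% the third. The IRF1 promoter held a GAS that began 124 bases before the start, and the third IRF5 start had an IRF core beginning 33 bases before it. This IRF5 window lies downstream of the canonical IRF5 start of GENCODE, with 44 of its 250 bases in annotated IRF5 exons. The 2 overlapping IRF8 windows held 2 IRF cores, 116 and 21 bases before the first start, and the latter is the same site as that found 206 bases before the second start. Both windows lie downstream of the canonical IRF8 start of GENCODE, with 141 and 250 of their 250 bases in annotated IRF8 exons. The IRF4 promoter held none of the 3 motifs. IRF9 had a GAS beginning 63 and an IRF core beginning 35 bases before its start. Stretches of the IRF1 and IRF5 promoters outside annotated exons of their own gene are shown 5′ to 3′ on the gene's strand. The motif is in capitals. They are shown because they hold the matches in the members that were transcribed. Each full window of 250 bases matched GRCh37 exactly once. The stretches shown are at chr5:131826470-131826715 on the minus strand and chr7:128580518-128580723 on the plus strand.
IRF1: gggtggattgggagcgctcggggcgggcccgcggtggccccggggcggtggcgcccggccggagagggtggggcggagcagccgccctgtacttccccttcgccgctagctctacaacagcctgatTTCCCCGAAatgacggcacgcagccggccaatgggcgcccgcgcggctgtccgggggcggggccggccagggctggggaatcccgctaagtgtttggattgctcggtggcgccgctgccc
IRF5: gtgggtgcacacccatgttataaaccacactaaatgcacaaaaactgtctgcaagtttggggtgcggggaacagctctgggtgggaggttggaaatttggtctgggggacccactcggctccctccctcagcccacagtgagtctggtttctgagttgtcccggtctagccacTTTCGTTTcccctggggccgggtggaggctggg
A match describes these letters and not a bound site, since no binding data were used.

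The 6 libraries held between 24895998 and 35181733 expected counts, so that 3 counts in a library stood for between 0.0869 and 0.112 CPM (read counts scaled to library size with TMM factors). Values of single libraries are given in the order of replicates 1, 2 and 3. STAG2 itself was at 66.4, 34.7 and 28.8 CPM in WT and at 15.9, 7.30 and 6.69 CPM in KD, a log2 fold change of −2.12 (SE 0.43, edgeR adjusted p = 0.0342). That call was lost without any one of WT replicate 2, WT replicate 3, KD replicate 2 or KD replicate 3 (highest adjusted p = 0.168) and held with the replicate number as a block (adjusted p = 0.000104). WT replicate 1 stood apart from the other libraries, with 5.07% mitochondrial counts against at most 2.94% elsewhere and the highest levels of the melanocyte genes PMEL, DCT and MITF, and results that turn on it are given without it. The study describes its replicates as biologically independent samples, whereas the labels give replicate numbers alone.

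Of the 7 IRF genes, IRF7 was 10.9-fold higher in KD than in WT. IRF2 was 2.05-fold higher in KD, in a change that passed the test only under some settings. IRF1, IRF3, IRF4 and IRF5 did not pass the test. IRF8 had no counts in any library. Among the 6 members that could be tested, 1 was called at an adjusted p under 0.05, against 2.59% of all 15605 genes tested, and it was among the 1.75% of genes called higher in KD. With the replicate number as a block 2 members were called, IRF7 and IRF2, against 9.52% of all genes. For these 2 members no KD value fell within the WT range, which was so for 22.3% of the tested genes. The values of the members in each library are plotted by group.

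**Figure D1:**
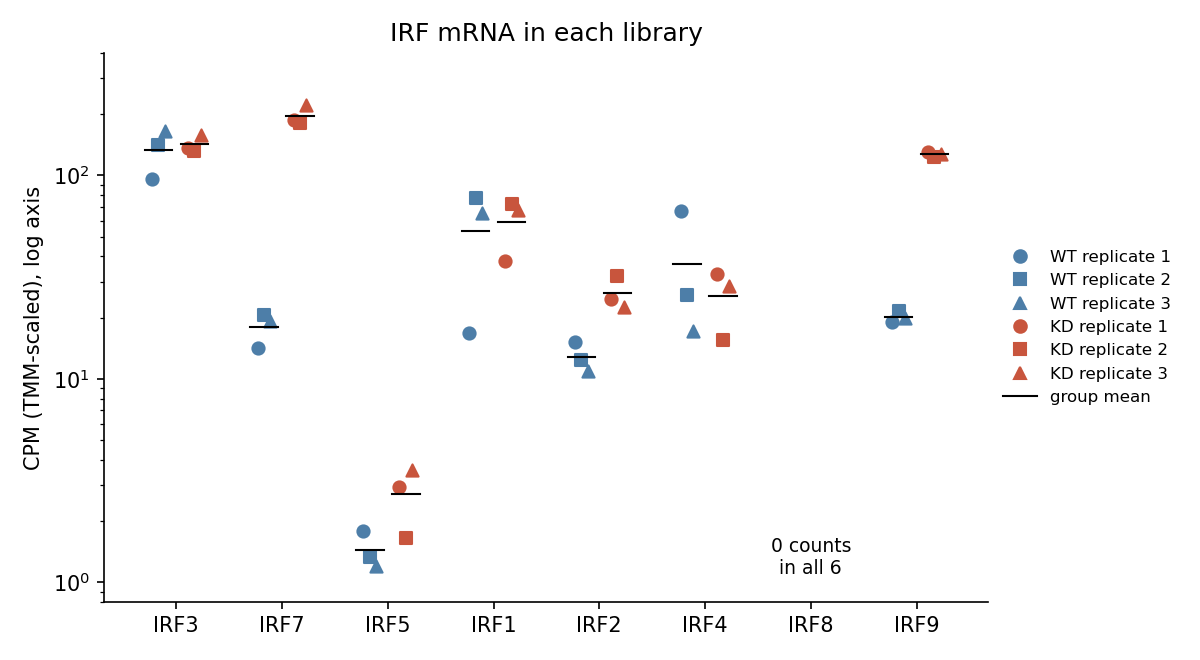
CPM of the 7 IRF genes and IRF9 in each library (log axis), with WT in blue, KD in red, a symbol for each replicate number and a line at the group mean. IRF7 and IRF9 lie in KD well above all WT libraries, IRF2 is separated by a smaller step, the other detected genes overlap between the groups, and IRF8 is at 0 counts.

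IRF7 (ENSG00000185507, chr11:612553-615983 on the minus strand of GRCh37) encodes the factor that amplifies type I interferon production once interferon signaling has begun. It was at 14.2, 20.5 and 19.4 CPM in WT and at 187, 181 and 222 CPM in KD. Every KD library lay far above every WT library, and the spread within each group was small beside the gap. The mean went from 18.0 ± 3.39 to 196 ± 22.1 CPM (SD, n = 3), a log2 fold change of 3.44 (SE 0.23, edgeR adjusted p = 5.21e-05), which is 10.9-fold with a 95% confidence interval of 7.67 to 15.5. This put IRF7 at rank 128 of 15605 tested genes by log2 fold change. With any single library removed the log2 fold change stayed between 3.29 and 3.55, with a highest adjusted p of 0.00155. An exact two-sided permutation test of this gene alone gave p = 0.1, the smallest that 3 libraries against 3 can give.

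IRF3 (ENSG00000126456, chr19:50162826-50169132, minus strand) encodes the constitutive partner of IRF7 in the response to foreign nucleic acid. It was at 96.0, 141 and 165 CPM in WT and at 137, 132 and 158 CPM in KD, so that all KD values fell within the WT range. The log2 fold change was 0.09 (SE 0.23, 95% confidence interval −0.42 to 0.60, edgeR adjusted p = 0.920). Its sign turned without WT replicate 1 (−0.11) and without KD replicate 3 (−0.01). IRF3 starts 0.076 kb from BCL2L12 on the opposite strand and shares 734 exonic bases with it. The libraries were made with a directional kit, but whether the counting used strand is not given in the sources used here, and without it reads of the pair in these bases could not be told apart. BCL2L12 had a log2 fold change of −0.18 (edgeR adjusted p = 0.787).

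IRF5 (ENSG00000128604, chr7:128577511-128590092, plus strand), which drives inflammatory cytokine genes downstream of Toll-like receptors in myeloid cells, was expressed at a low level. It was at 1.79, 1.33 and 1.20 CPM in WT and at 2.95, 1.66 and 3.55 CPM in KD, from 33 to 116 counts per library. KD exceeded the same-numbered WT library in 3 of 3 pairs, but KD replicate 2 lay below WT replicate 1, so the groups overlapped. The log2 fold change was 0.92 (SE 0.67, edgeR adjusted p = 0.624), and its 95% confidence interval of −0.58 to 2.41 includes both no change and a change as large as that of IRF2.

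IRF2 (ENSG00000168310, chr4:185306856-185395712, minus strand) encodes a factor that competes with IRF1 for DNA. It was at 15.2, 12.4 and 10.9 CPM in WT and at 24.6, 32.1 and 22.4 CPM in KD. The lowest KD library was above the highest WT library, and the means were 12.8 ± 2.17 and 26.4 ± 5.06 CPM (SD, n = 3). The log2 fold change was 1.04 (SE 0.26), or 2.05-fold with a 95% confidence interval of 1.37 to 3.09. In edgeR without a block the adjusted p was 0.0802 (unadjusted 0.00289), which misses the threshold, and with the replicate block it was 0.0176. DESeq2 gave an adjusted p of 0.0182 and edgeR with no filter on low counts 0.0344. Leaving out single libraries moved the log2 fold change between 0.87 and 1.17 and the adjusted p between 0.0511 and 0.324.

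IRF1 (ENSG00000125347, chr5:131776132-131844411, minus strand) encodes the interferon gamma-induced activator and varied widely between replicates. It was at 16.8, 77.3 and 65.4 CPM in WT and at 37.9, 72.2 and 68.0 CPM in KD. The replicate 1 library was the lowest of its group in both WT and KD, and the groups overlapped. The log2 fold change was 0.16 (SE 0.48, 95% confidence interval −0.91 to 1.22, edgeR adjusted p = 0.933), and with the replicate block 0.36 (adjusted p = 0.430). The sign turned without WT replicate 1 (−0.27) and without KD replicate 2 (−0.01).

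An antisense transcript crosses the IRF1 gene. IRF1-AS1 (C5orf56 in the count table, ENSG00000197536) runs on the opposite strand and shares 2805 exonic bases with IRF1 in the annotation used. It was at 1.25, 2.55 and 1.02 CPM in WT and at 7.09, 5.49 and 10.3 CPM in KD. All KD libraries were above all WT libraries, with a log2 fold change of 2.23 (SE 0.53), an edgeR adjusted p of 0.0648 without the block and 0.0279 with it. The same limit on strand holds for the bases shared by IRF1 and its antisense partner. The antisense RNA was chosen for its overlap with IRF1.

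IRF4 (ENSG00000137265, chr6:391739-411443, plus strand) is the member tied to the melanocyte lineage. It was at 67.0, 25.7 and 17.3 CPM in WT and at 32.7, 15.6 and 28.5 CPM in KD. The replicate 1 library was the highest of its group in both WT and KD, and the groups overlapped. The log2 fold change was −0.52 (SE 0.47, 95% confidence interval −1.58 to 0.54, edgeR adjusted p = 0.721), and it was 0.24 without WT replicate 1. MITF, its partner in melanocytes, was likewise highest in WT replicate 1 at 211 CPM, against 60.9 and 56.6 CPM in WT replicates 2 and 3, and was 74.9, 34.4 and 54.2 CPM in KD. The part of melanocyte lineage genes in the IRF4 values was not tested.

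IRF8 (ENSG00000140968, chr16:85932722-85956212, plus strand), a factor of myeloid and B cells, had 0 counts in all 6 libraries. A count of 0 allows up to 3 counts in a library, at most 0.112 CPM, which covers counting error alone. The 10 leukocyte markers examined summed to between 2.64 and 4.60 CPM in WT and between 3.20 and 5.73 CPM in KD libraries, with CD3E and MS4A1 at 0 throughout and PTPRC at 0 in all KD libraries. The 8 melanocyte lineage markers were all detected and summed to between 1860 and 6302 CPM in WT and between 1194 and 2604 CPM in KD. In this list 1 of 8 genes, S100B, fell in edgeR without the block and 6 fell with it. Of all genes tested 2.59% and 9.52% were called in either direction in these 2 fits. The median log2 fold change was −1.13, and 1 gene, TYR, was above 0. This median includes WT replicate 1, where DCT was at 1430 CPM, against 228 CPM in both other WT libraries and 421, 106 and 109 CPM in KD. The median was not computed without that library. In bulk RNA fewer cells of one state and less RNA per cell cannot be told apart.

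**Figure D2:**
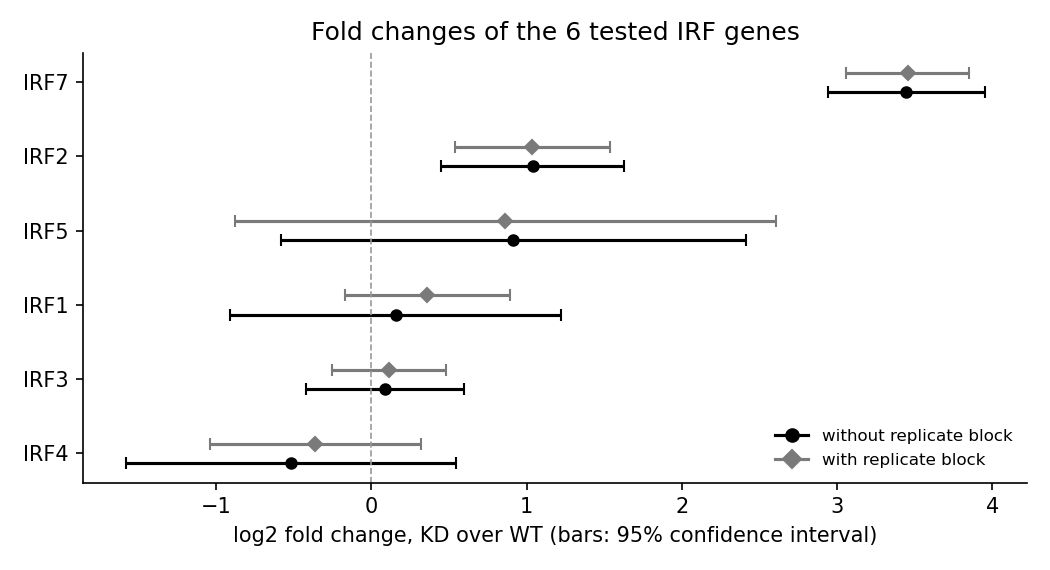
Log2 fold change (KD over WT) of the 6 tested IRF genes with its 95% confidence interval, from edgeR without (black circles) and with (grey diamonds) the replicate block. The IRF7 and IRF2 intervals lie above 0 in both fits, and those of IRF1, IRF3, IRF4 and IRF5 include 0.

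To compare levels between genes, CPM were divided by the length of each gene's merged exons in kb. In WT cells IRF3 was the most abundant member at 35.3 ± 9.21 CPM per kb (SD, n = 3) and the highest in every WT library. IRF7 at 6.90 ± 1.30, IRF4 at 6.15 ± 4.46 and IRF1 at 4.34 ± 2.61 CPM per kb followed with overlapping ranges. IRF2 at 1.91 ± 0.32 and IRF5 at 0.203 ± 0.043 CPM per kb came next, with the IRF2 values overlapping the lowest of IRF1, and IRF8 was last at 0. In KD cells IRF7 came first at 75.2 ± 8.46 CPM per kb, above IRF3 at 37.5 ± 3.59 CPM per kb in each of the 3 libraries. IRF1 at 4.84 ± 1.52, IRF4 at 4.29 ± 1.49 and IRF2 at 3.92 ± 0.75 CPM per kb overlapped below them. IRF7 was above IRF3 in every KD library, and below it in every WT library, also with the longest or the canonical transcript as the length, whereas the order of IRF1, IRF4 and IRF7 in WT cells depended on that choice.

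The same levels were summed over the 7 members and IRF9 to give the share of each in the IRF mRNA pool of a library. The share of IRF7 was 11.1%, 12.9% and 11.6% in WT and 51.0%, 50.7% and 52.9% in KD, a rise of 39.6 percentage points in the means. With the canonical transcript lengths the rise was 26.6 points, from 7.02% to 33.6%. The share of IRF3 was 51.9%, 61.0% and 67.9% in WT and 25.7%, 25.5% and 25.9% in KD, although its own CPM did not pass the test. Thus IRF3 made up the larger portion in WT and IRF7 in KD. With the canonical transcript lengths the KD means were closer, at 33.6% for IRF7, 29.3% for IRF3 and 25.8% for IRF9. The share of IRF4 was 11.5 ± 10.0% in WT and 2.93 ± 1.00% in KD (SD, n = 3), a difference of −8.61 points that shrank to −2.87 points without WT replicate 1 and was −4.28 points with the canonical transcript lengths. For each of these 3 shares the groups did not overlap and the exact two-sided permutation test gave p = 0.1, the smallest possible with 3 libraries against 3. The share of IRF9 rose as well, from 5.42% to 13.5% in the means, with no overlap between the groups. A share moves when any other gene of the pool moves, so the IRF3 and IRF4 shares are not separate from the rises of IRF7 and IRF9.

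**Figure D3:**
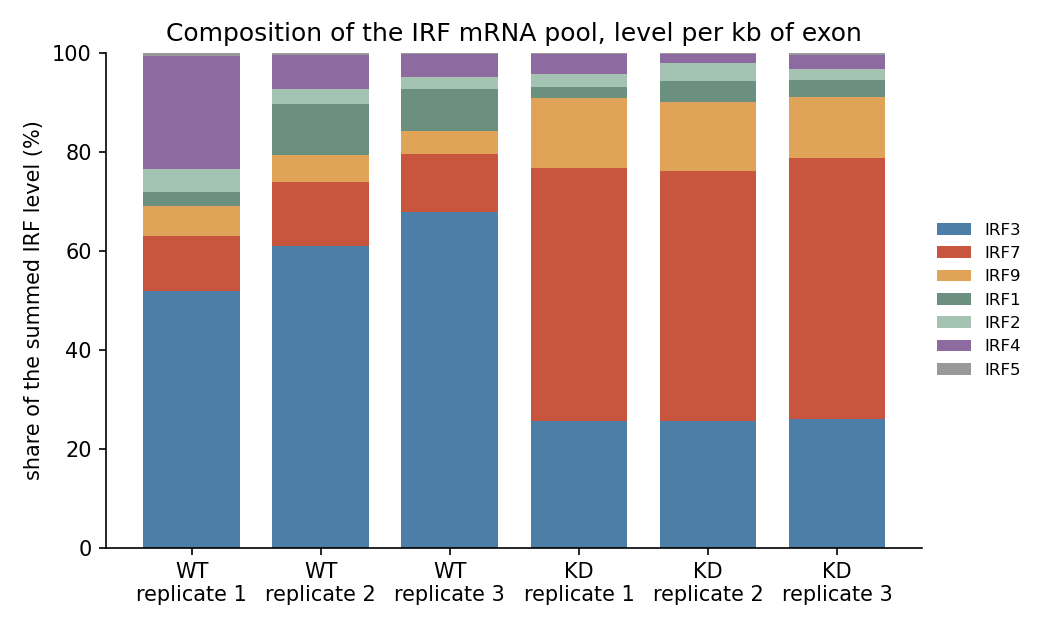
Share of each IRF gene in the summed level per kb of exon (%, 7 members and IRF9) in each library, as stacked bars; IRF8 is at 0 and not drawn. IRF3 fills 51.9% to 67.9% of the WT bars and 25.5% to 25.9% of the KD bars, where IRF7 fills 50.7% to 52.9%.

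Ratios within a library compare 2 IRF genes without the scaling between libraries. The log2 ratio of IRF7 to IRF3 in CPM was −2.76, −2.78 and −3.09 in WT and 0.45, 0.45 and 0.49 in KD. The ratio was thus nearly constant within KD, and the difference of the means was 3.34. The log2 ratio of IRF7 to IRF9 went from −0.42, −0.07 and −0.04 in WT to 0.52, 0.55 and 0.79 in KD, a difference of 0.80, with all KD ratios above all WT ratios. For both ratios the exact two-sided permutation test gave p = 0.1 (0.2 adjusted over the 4 ratios compared). The ratio of IRF2 to IRF3 differed by 0.92 (exact p = 0.2, adjusted 0.267) and that of IRF1 to IRF3 by 0.26 (exact p = 0.7), the latter turning to −0.21 without WT replicate 1. IRF9 itself went from 20.1 ± 1.28 to 127 ± 3.60 CPM (SD, n = 3).

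Lists of genes around the IRFs were then examined. For comparison with their counts, 1.75% of all genes tested were called higher in KD without the block. With the replicate block 9.52% were called in either direction. The first list held the proteins that activate IRF3, IRF5 and IRF7. Of 21 such genes 20 were tested and 2 rose, the RNA sensors DDX58 (RIG-I), from 3.25 ± 1.21 to 63.7 ± 17.8 CPM with a log2 fold change of 4.28 (edgeR adjusted p = 0.000236), and IFIH1 (MDA5), with a log2 fold change of 3.62 (edgeR adjusted p = 0.00132). With the replicate block 4 rose, adding the adaptors MYD88, with a log2 fold change of 0.95 without the block, and TICAM1, with 0.90. The kinases that phosphorylate IRF3 and IRF7 did not pass the test, with TBK1 at a log2 fold change of −0.07 and IKBKE at 0.48, and neither did the adaptors MAVS at 0.01 and TMEM173 (STING) at 0.27. The list had a median log2 fold change of 0.44, beside −0.03 for all genes tested. This median includes TLR9, with 3, 0 and 0 counts in WT and a fitted log2 fold change of 4.17. TLR9 did not pass the test, but it met the low-count filter through KD alone and could only come out higher.

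Among 10 coregulators and inhibitors of IRFs, all tested, 2 rose. TRIM21, a ubiquitin ligase that acts on several IRFs, went from 20.8 ± 6.05 to 130 ± 29.2 CPM (SD, n = 3) with a log2 fold change of 2.64 (edgeR adjusted p = 0.0011), and RBCK1, reported to promote IRF3 degradation, rose with a log2 fold change of 1.20 (edgeR adjusted p = 0.0221). The count fell to 1 without WT replicate 2, WT replicate 3, KD replicate 2 or KD replicate 3, and with the replicate block TRIM26 was called as well. The IRF2-binding corepressors IRF2BP1 and IRF2BP2 had log2 fold changes of 0.03 and −0.22 that did not pass, as did the coactivators CREBBP (0.25) and EP300 (0.12). The median of the list was 0.07.

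Among interferon receptor and signaling genes that act before IRF1 and IRF7 are induced, STAT2 rose with a log2 fold change of 1.94 (edgeR adjusted p = 0.00184) and IRF9 with 2.66 (adjusted p = 6.49e-05). The receptor genes IFNAR1 (0.05), IFNAR2 (0.43), IFNGR1 (0.26) and IFNGR2 (0.19) and the kinases JAK1 (−0.10) and TYK2 (−0.22) did not pass.

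A further list held 15 genes that IRF3 or IRF7 is known to bind and induce. Of these 10 were tested and 8 rose, 9 with the replicate block, which adds CCL5. The count was 6 with at least 10 counts required in every library. IFNL1 and RSAD2, at or near 0 counts in WT, passed the low-count filter through KD alone and could only come out higher. Both are among the 8 and in the median below. ISG15, a ubiquitin-like modifier, went from 23.4 ± 8.53 to 1223 ± 281 CPM (SD, n = 3) with a log2 fold change of 5.71 (edgeR adjusted p = 5.21e-05), and IFIT1, which binds viral RNA, had a log2 fold change of 5.44. RSAD2 was at 0.0372, 0.0290 and 0 CPM in WT and at 40.2, 21.2 and 47.5 CPM in KD. IFNL1, a type III interferon, had 0 counts in all WT libraries and 6.19, 8.86 and 10.6 CPM in KD, at least 83.4-fold higher against a floor of 3 counts per WT library, whereas IFNB1 was at 0 counts in all 6 libraries. The median log2 fold change was 4.99, also with IFNL1 set at its bound, and many of these genes also respond to IRF9.

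IRF1 mRNA did not pass the test, and its known targets were examined beside it. Of 18 genes that IRF1 binds and induces, all tested, 10 rose, 11 with the replicate block, which adds PSMB8. Without KD replicate 3 the count was 5. The peptide transporter TAP1 went from 67.1 ± 14.8 to 558 ± 82.5 CPM (SD, n = 3) with a log2 fold change of 3.06 (edgeR adjusted p = 0.000177), NLRC5, the activator of MHC class I genes, rose with a log2 fold change of 2.70, and CD274 (PD-L1) with 3.41. HLA-B (2.88) and B2M (2.16) rose too, whereas CIITA (−0.17), IL7 (−0.02), SOCS1 (−0.19) and PSMB10 (0.15) did not pass. The median was 1.45. Other interferon-activated factors also induce some of these genes, so the list is not specific to IRF1.

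Of 10 partners of IRF4 and IRF8, 6 were tested and 0 passed in edgeR without the block. EGR2, whose mean went from 0.112 ± 0.193 to 2.72 ± 1.34 CPM (SD, n = 3), was the 1 gene with an unadjusted p under 0.05 in edgeR (0.0139) and passed with the block. DESeq2 also called 1 gene of the list. EGR2 had 9, 0 and 0 counts in WT, so it passed the low-count filter through its KD counts and could only come out higher. BATF and JUNB, which bind DNA together with IRF4, had log2 fold changes of 0.32 and 0.57. The leukocyte factors SPI1 (PU.1), IKZF1 and IKZF3 were at 0 counts in all libraries, as was IRF8. SPIB, a leukocyte factor related to SPI1, was too low to be tested, with 2.01, 52.86 and 27.9 counts in WT and 0 counts in each KD library.

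**Figure D4:**
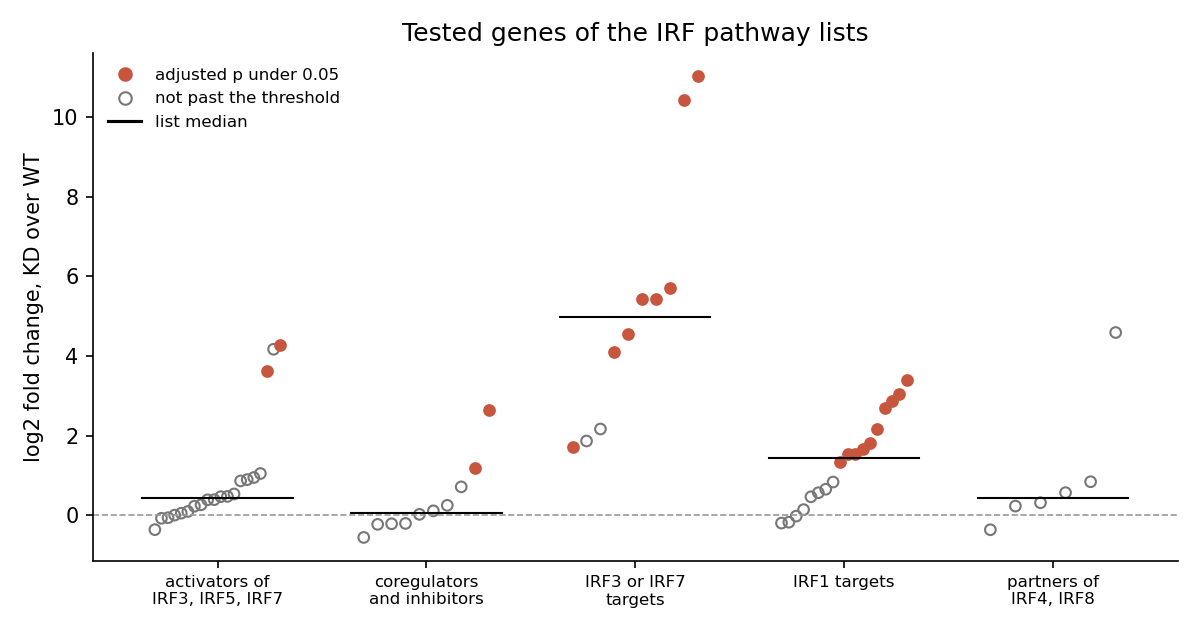
Log2 fold change (KD over WT) of the tested genes in 5 lists, with red for an adjusted p under 0.05 in edgeR, open circles for other genes and a line at the list's median. The medians are 0.44, 0.07, 4.99, 1.45 and 0.45 from left to right. The 2 values above 10, IFNL1 and RSAD2, are fitted values of genes at or near 0 counts in WT. So are TLR9 at 4.17 in the leftmost list and EGR2 at 4.59 in the rightmost, and both are in the medians of their lists.

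The 3 tested protein-coding genes on each side of IRF1, IRF2, IRF3 and IRF7 were examined to see whether adjacent genes changed too. Of the 24 neighbours 1 was called, beside 2.59% of all genes tested (9.52% with the replicate block). It was DEAF1, 79.3 kb from the IRF7 start, with a log2 fold change of 0.95 (edgeR adjusted p = 0.0482). The count was 0 when any library other than WT replicate 1 was left out. PHRF1, which starts 39.5 kb from IRF7, had a log2 fold change of 0.23 (adjusted p = 0.819), and did not pass. With the replicate block a second neighbour was called, PDLIM4, 233 kb from IRF1 (log2 fold change 0.91, adjusted p = 0.0104). In all 9 of 24 neighbours had log2 fold changes above 0, with a median of −0.11 beside −0.03 for all genes tested.

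**Figure D5:**
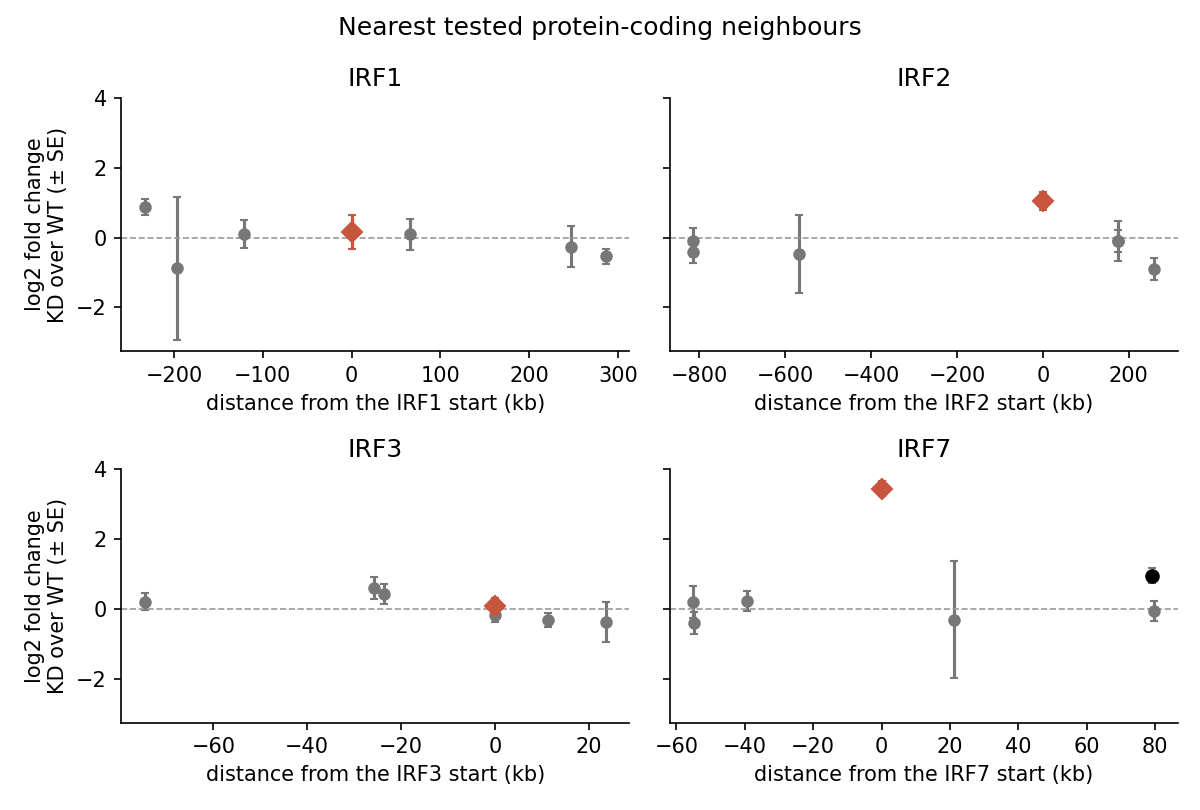
Log2 fold change (KD over WT, with SE) of the 3 nearest tested protein-coding genes on each side of 4 IRF genes against the distance between start sites in kb; the red diamond is the IRF gene and black marks DEAF1, the neighbour with an adjusted p under 0.05. IRF7 at 3.44 stands above all its neighbours, whose highest value is 0.95.

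The genes whose profile over the 6 libraries was most like that of IRF7 were sought among 13528 tested genes with a mean of at least 1 CPM. Likeness was the root mean square difference of the mean-centered log2(CPM + 0.5) values. The closest were HSH2D (0.173), SAMD9L (0.174) and DHX58 (0.178), an RNA helicase of the RIG-I family. SAMD9L was at 7.18, 8.03 and 8.44 CPM in WT and at 91.1, 70.6 and 119 CPM in KD. DHX58 had a log2 fold change of 3.63 beside the 3.44 of IRF7. HSH2D had 0 counts in WT, so its place depends on the pseudocount of 0.5.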

How the data were processed

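RNA-seq of 6 M14 libraries (3 WT, 3 KD) was used. The authors aligned the reads with STAR to hg19 and deposited expected counts per gene estimated by RSEM, not scaled or filtered; reads that match several genes are divided between them, so values need not be whole. The libraries were directional; the strand setting of the counting and the annotation version are not given in the sources used here. Totals were 24895998 to 35181733 counts per library.

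Counts were rounded and tested with edgeR 4.0.16 (TMM scaling, filterByExpr, quasi-likelihood F-test, Benjamini-Hochberg over the 15605 genes kept, threshold 0.05), in R 4.3.3. Single values were compared by exact two-sided permutation (pseudocount 0.5 CPM). Positions and exon lengths came from GENCODE v44lift37. The fit was tested on simulated counts. Same-numbered WT and KD libraries deviated together (r = 0.508, 0.330 and 0.283 over 12722 genes, against −0.394 to 0.198 for other pairs). The separation was largest for replicate 1. Replicates 2 and 3 were less distinct, with r = 0.198 for WT replicate 2 and KD replicate 3, and 0.157 for WT replicate 3 and KD replicate 2. For the fit with a block the numbers were taken to pair the libraries, as a feature of the data. The main fit and the exact permutation tests did not use this pairing. The labels give the numbers alone. A fit with the number as a block had been planned as an alternative and was run as well. Alternatives were DESeq2 1.42.0, limma-voom 3.58.1, upper-quartile scaling, other filters, unrounded counts and leaving out each library. The canonical transcript length and the neighbours without each library were added after seeing the data.

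The members and lists were chosen with earlier results of these data known. Genes named are the members, STAG2, IRF9, the genes of the lists and markers, the 3 nearest neighbors on each side, and for each member past the threshold the 3 genes of the most similar profile; 2 genes that overlap IRF1 and IRF3 were added for that overlap. Motif matches and RefSeq promoters were read from the table supplied with the reference. A result for 1 gene of the interferon signaling list is not reported here, and that list is therefore given without its count.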

Additional observations from a re-analysis of the deposited data

How the results depend on the processing

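The call for IRF7, the call for IRF9 and the direction of IRF2 held under every alternative run. The number of members called was 2 in place of 1 with DESeq2, with the replicate block and with no filter on low counts, in each case by the addition of IRF2; it was 1 to 1 when libraries were left out. Over all genes the count of 404 became 979 with DESeq2, 1486 with the replicate block, 1103 with no filter and 137 at an adjusted p under 0.01, and lay between 121 and 531 without single libraries, lowest without KD replicate 3. STAG2 ranged from −2.63 to −1.68 on the log2 scale without single libraries. Activators of IRF3, IRF5 and IRF7 called numbered 4 with the replicate block and with no filter. Without single libraries the coregulators called numbered 1 to 2, the IRF1 targets 5 to 10 and the partners of IRF4 and IRF8 0 to 1; the partners called numbered 1 with DESeq2, the replicate block and no filter. Called neighbours numbered 2 with the replicate block and 0 to 1 without single libraries. Signs turned for IRF1 (−0.27 without WT replicate 1, −0.01 without KD replicate 2, range −0.27 to 0.53), IRF3 (−0.11 and, without KD replicate 3, −0.01, range −0.11 to 0.26), IRF4 (0.24 without WT replicate 1, range −0.87 to 0.24) and the IRF1 to IRF3 ratio (−0.21 without WT replicate 1, range −0.21 to 0.61). The cause was not tested. Apart from IRF2, the list genes, the neighbour and the antisense RNA named in the text, the block changed no call among the members. With 3 libraries a group, exact tests of single values cannot pass the threshold, and the IRF5 counts limit what could be detected.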
